A study of Mus musculus with 30 samples.

Results

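Amino acid transporters are the membrane proteins through which a blastocyst takes up amino acids from its medium, and 10 of their genes were followed here among the 30142 genes with a transcript cluster of their own. The 10 genes were given by name and cover the exchangers built on the heavy chain Slc3a2, the cationic amino acid transporters, and sodium-coupled carriers of neutral amino acids and glycine. For each, the transcript cluster (the array's unit of measurement for a gene) that carries this single gene symbol and is brightest on average across the 30 arrays was taken. Of the 10, 9 had a mean signal above the level required for testing, and Slc7a11 did not.

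The heavy chain Slc3a2, also known as 4F2hc or CD98, is a glycoprotein that carries a light chain of the Slc7 family to the cell surface. With Slc7a5 (LAT1) or Slc7a8 (LAT2) it exchanges large neutral amino acids such as leucine, and with Slc7a11 (xCT) it exchanges cystine for glutamate. In mouse blastocysts, uptake of leucine and arginine is known to feed mTOR signalling before trophoblast outgrowth, and many transporter genes are targets of Atf4, the transcription factor induced when amino acids run short.

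Each of the 30 arrays measured the RNA of a single mouse blastocyst. The first group held 10 GM501 twins, each grown from 1 blastomere of a bisected 2-cell embryo in GM501, a medium of human assisted reproduction. The second group held their 10 SAGE 1-Step twins, grown from the sister blastomeres in another such medium, and the third held 10 intact control embryos grown in KSOM(aa), an amino acid-containing medium made for mouse embryos. All embryos came from B6C3F1 x CD1 matings after hormone stimulation, were collected as zygotes from the oviduct, were kept in KSOM(aa) until they had 2 cells, were then cultured individually, and were lysed as blastocysts at 4 dpc after 96 h in culture. The labels put the twins at about 40 to 50 cells and the controls at about 80 cells. Medium, bisection and cell number all differed between twins and controls and cannot be told apart. Each number from 1 to 10 names the embryo that gave a pair of twins, whereas the controls' numbers pair nothing. The labels give no matings or culture days, so every p-value refers to the spread among these embryos, whatever its source.

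The signals are log2 values, so 1 unit is a 2-fold difference. The median signal of an array ran from 4.59 to 5.28 in GM501 twins, 4.57 to 5.22 in SAGE twins and 4.59 to 4.69 in controls. Within the twins it ran from 4.81 to 5.28 in pairs 1 to 6 and from 4.57 to 5.12 in pairs 7 to 10, where the SAGE twin of pair 8 held the 5.12 and the other 7 arrays lay at or below 4.67. The labels name no batch that separates these pairs, and counts of calls against controls are given for each set of pairs as well as for all. Pearson's r between arrays lay between 0.928 and 0.985. All 6 trophectoderm markers measured were called lower than in controls in both twin groups, with a mean signal over the list of 11.6 to 12.43 in GM501 twins, 11.04 to 12.73 in SAGE twins and 12.44 to 12.94 in controls. They were all called lower in pairs 1 to 6 too, but in pairs 7 to 10 only 1 of 6 was in GM501 twins and 0 of 6 in SAGE twins, with median differences of -0.28 and -0.23 log2 units against -0.71 and -0.74 over all pairs. Of 6 epiblast markers, Klf2 alone was called in GM501 twins, where it was higher, and Nanog, Sox2 and Pou5f1 were called lower in SAGE twins. After centring each array on its median none of the 6 was called in GM501 twins and 5 were called lower in SAGE twins. In pairs 1 to 6, 3 of the 6 were called lower and 1 higher in GM501 twins and 4 lower and 1 higher in SAGE twins, and in pairs 7 to 10 none was called in either. Of 4 primitive endoderm markers, Lama1 was called lower in both twin groups and Gata4 in SAGE twins, with 3 and 4 of them lower in pairs 1 to 6 and none called in pairs 7 to 10. Over all genes and all pairs, 6.97% were called lower in GM501 twins and 8.63% in SAGE twins. In pairs 1 to 6 these shares of all genes were 21.1% and 19.9%, and in pairs 7 to 10 they were 0.575% and 0.531%. A call is an adjusted p under 0.05 in limma, with Benjamini-Hochberg adjustment over all genes tested. Markers of cumulus, granulosa, oviduct and blood cells, with 8 of the list measured and 5 above the required level, averaged 4.49 to 5.3 in GM501 and 4.50 to 5.23 in SAGE twins and 4.61 to 4.82 in controls, close to the array medians. Tnfaip6 alone was called, higher in SAGE twins, and in pairs 1 to 6, 3 of the 5 were called higher in either medium. In those pairs 6926 of all 18090 genes were called higher in GM501 twins and 7045 in SAGE twins. The part of the cell type markers in the results below was not tested. In a bulk measurement of a blastocyst, fewer cells of a type and less RNA per cell cannot be told apart.

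Sequences before 3 of the start sites are shown, those of the heavy chain and of 2 of its light chains. Slc3a2 and Slc7a8 were lower in twins. Slc7a11 lay below the level required for testing, where a fall could hardly be seen, so it makes no contrast with them. RefSeq's table for GRCm38.p6 held 300-base windows, from 250 bases before a start site to 50 after it, for 7 of the 10 genes. They are Slc3a2, Slc7a8, Slc7a1, Slc7a11, Slc38a2, Slc6a9 and Slc6a14. Capitals mark matches on either strand to TGATGNAA, the core of the C/EBP-ATF response element that ATF4 dimers bind. Matches to TGACNNNGC, the core of the antioxidant response element that NRF2 binds, were also sought on either strand but are not capitalised. The windows below lie on the minus strand, at chr19:8713848-8714147 for Slc3a2, chr14:54781837-54782136 for Slc7a8 and chr3:50443564-50443863 for Slc7a11, and those of Slc3a2 and Slc7a11 fall within the spans given below for these genes.
Slc3a2: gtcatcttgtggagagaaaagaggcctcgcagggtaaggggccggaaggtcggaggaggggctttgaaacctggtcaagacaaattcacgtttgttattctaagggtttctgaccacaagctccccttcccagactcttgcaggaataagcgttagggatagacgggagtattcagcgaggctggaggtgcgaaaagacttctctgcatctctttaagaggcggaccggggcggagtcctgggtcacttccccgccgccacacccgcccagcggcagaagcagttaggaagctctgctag
Slc7a8: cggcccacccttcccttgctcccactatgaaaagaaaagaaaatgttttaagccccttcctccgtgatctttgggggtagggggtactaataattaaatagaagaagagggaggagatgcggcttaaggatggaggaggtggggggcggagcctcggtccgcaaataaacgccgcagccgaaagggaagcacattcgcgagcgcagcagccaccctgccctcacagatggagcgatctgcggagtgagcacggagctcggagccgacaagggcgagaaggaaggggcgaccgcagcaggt
Slc7a11: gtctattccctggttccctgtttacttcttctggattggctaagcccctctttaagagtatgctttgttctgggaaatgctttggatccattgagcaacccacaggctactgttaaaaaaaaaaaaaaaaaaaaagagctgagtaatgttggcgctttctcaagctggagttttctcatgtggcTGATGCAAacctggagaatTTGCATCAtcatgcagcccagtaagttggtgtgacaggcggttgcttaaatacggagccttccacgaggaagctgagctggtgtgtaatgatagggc

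The Slc7a11 window held TGATGNAA at 2 places that share no base: TGATGCAA on the gene's own strand from position -66, and TTGCATCA, which is its reverse complement, from position -47, counted with -1 as the base before the start site. No other window of the 7 genes held this motif, while 3.97% of 32851 windows in the table did. TGACNNNGC, present in 12.4% of those windows, was found in a window each of Slc7a1 and Slc38a2 and in 2 windows of Slc6a9, and in none of the 3 windows printed. A match is only a description of the letters, and its absence says nothing of a factor.

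Most of the amino acid transporter transcripts were lower in twins of either medium than in controls, with the largest differences in Slc7a8 and Slc7a5, light chains of Slc3a2. In GM501 twins, 7 of the 9 tested genes were called lower and none higher, against 6.97% of the 18090 genes tested called lower and 13.8% called in either direction. In SAGE twins, 6 of 9 were called lower and none higher, against 8.63% of all genes called lower and 16.1% in either direction. In pairs 7 to 10 these counts became 1 of 9 in GM501 twins and 0 of 9 in SAGE twins, against 0.575% and 0.531% of all genes. With all 3 groups and the pair as a random block they were 7 and 3 of 9. That setting called 1705 of the 18090 genes in GM501 twins, 723 of them higher. In SAGE twins it called 2092, of which 894 were higher. The median difference over the 9 genes was -1.70 log2 units in GM501 twins and -1.27 in SAGE twins, while over all genes it was 0.11 in each comparison. The 2 comparisons share the 10 controls. The plot of signals in single blastocysts shows the 3 groups for each gene.

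**Figure D1:**
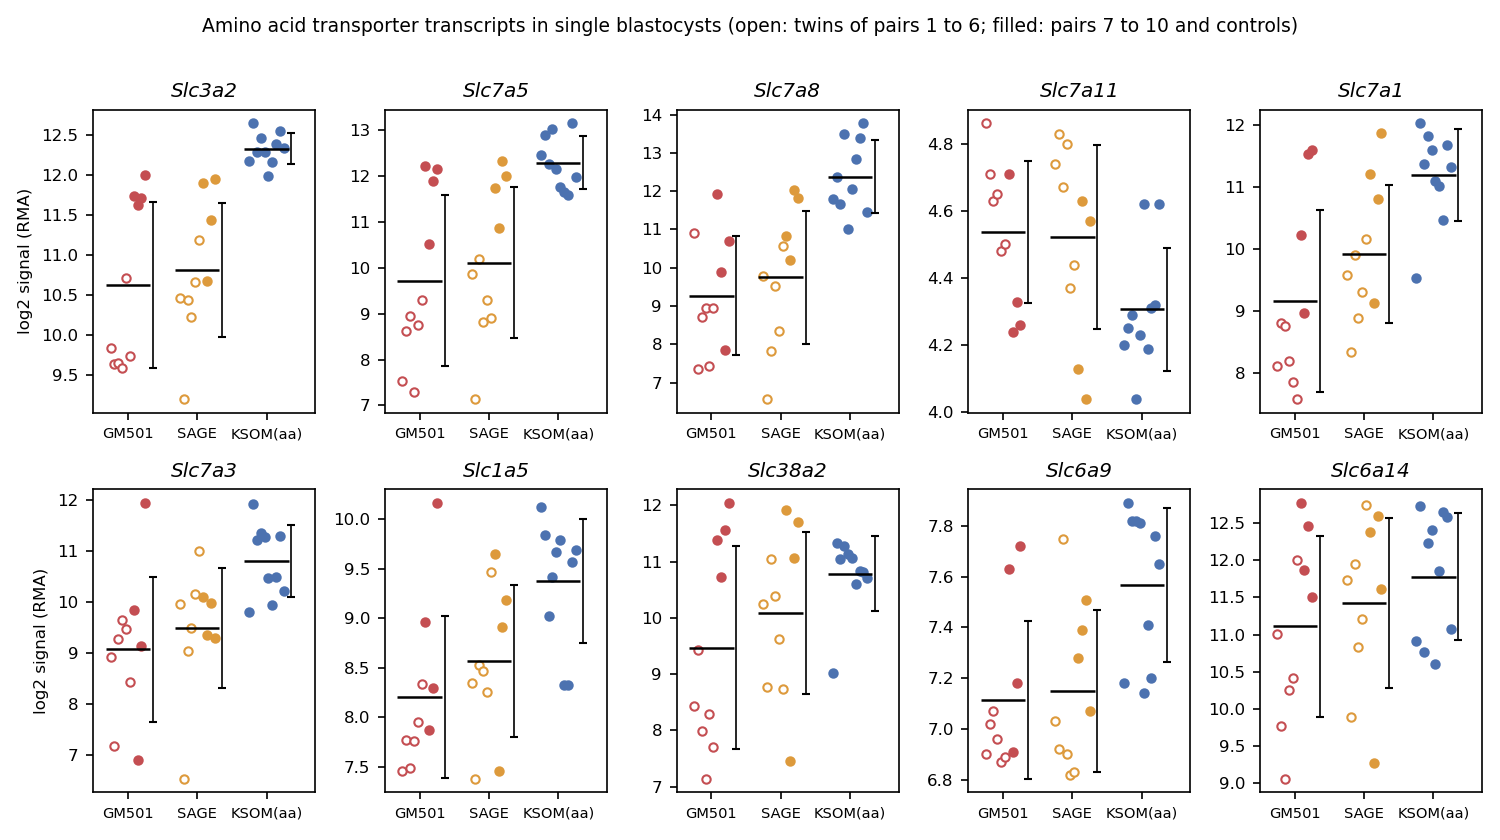
Signals of the 10 genes (RMA log2 signal, vertical axis, scaled separately for each gene) in single blastocysts of each medium. Open points are twins of pairs 1 to 6, filled points are twins of pairs 7 to 10 or controls; lines are means, and bars are ± 1 SD (n = 10 per group). For Slc3a2 all SAGE twins lie below the lowest control, at 11.98.

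Slc3a2 is the heavy chain (chromosome 19, 8706882 to 8723369, GRCm38.p6). Among the 10 genes, its SAGE twins alone did not overlap the controls. The share of all genes without overlap was not counted, so this trait cannot be called particular to Slc3a2. Its signal had a lowest, median and highest value of 9.59, 10.28 and 12 in GM501 twins, of 9.20, 10.66 and 11.95 in SAGE twins and of 11.98, 12.31 and 12.64 in controls. All 10 SAGE twins lay below the lowest control, as did all GM501 twins but that of pair 10. GM501 twins averaged 10.62 ± 1.04, SAGE twins 10.81 ± 0.84 and controls 12.32 ± 0.20 (SD, n = 10 each). It fell by 1.70 ± 0.31 log2 units in GM501 twins (SE; adjusted p = 0.00458, limma) and by 1.51 ± 0.26 in SAGE twins (adjusted p = 0.0045), which are 3.25-fold and 2.85-fold lower.

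Slc7a5, the light chain of LAT1 (chromosome 8, 121881146 to 121907686), ran from 7.29 over a median of 9.12 to 12.22 in GM501 twins, from 7.14 over 10.03 to 12.34 in SAGE twins and from 11.58 over 12.21 to 13.15 in controls. In each medium 7 of 10 twins lay below the lowest control, and the others were the twins of pairs 7, 9 and 10. Slc7a5 fell by 2.57 ± 0.57 log2 units in GM501 twins (adjusted p = 0.0124, limma) and fell by 2.17 ± 0.51 in SAGE twins (adjusted p = 0.0142), 5.93-fold and 4.52-fold. Slc7a8, the light chain of LAT2 (chromosome 14, 54722215 to 54781886), had the largest differences among the 9 genes. It ran from 7.35 over 8.96 to 11.92 in GM501 twins, from 6.57 over 9.99 to 12.03 in SAGE twins and from 11.01 over 12.21 to 13.77 in controls. Its signal lay below the lowest control in 9 of 10 GM501 twins and 8 of 10 SAGE twins. It fell by 3.12 ± 0.54 log2 units in GM501 twins (adjusted p = 0.0029) and fell by 2.63 ± 0.58 in SAGE twins (adjusted p = 0.0111), 8.66-fold and 6.20-fold.

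Slc7a11, the light chain of the cystine and glutamate exchanger (chromosome 3, 50364936 to 50499087), had signals close to the array medians in every group. They ran from 4.24 over 4.57 to 4.86 in GM501 twins, from 4.04 over 4.6 to 4.83 in SAGE twins and from 4.04 over 4.27 to 4.62 in controls, and the groups overlapped. With no filter on low values its difference was 0.23 ± 0.09 log2 units in GM501 twins (adjusted p = 0.0689, limma) and 0.21 ± 0.11 in SAGE twins (adjusted p = 0.11). The array medians averaged 4.88 ± 0.24 in GM501 twins and 4.89 ± 0.23 in SAGE twins, against 4.64 ± 0.03 in controls (SD), and their part in this difference was not tested.

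The cationic transporters carry arginine, lysine and ornithine. Slc7a1 (CAT1; chromosome 5, 148327410 to 148399904) had a lowest, median and highest signal of 7.59, 8.79 and 11.59 in GM501 twins, of 8.34, 9.75 and 11.86 in SAGE twins and of 9.53, 11.34 and 12.02 in controls. Below the lowest control lay 7 of 10 GM501 twins and 4 of 10 SAGE twins, and the remaining twins overlapped the controls. Slc7a1 fell by 2.02 ± 0.48 log2 units in GM501 twins (adjusted p = 0.0155, limma) and fell by 1.27 ± 0.39 in SAGE twins (adjusted p = 0.0358; 0.0507 without pair 8 and 0.0606 with all 3 groups and the pair as a random block). Slc7a3 (CAT3; chromosome X, 101079146 to 101090452) had signals of 6.89, 9.20 and 11.93 in GM501 twins, of 6.53, 9.71 and 11 in SAGE twins and of 9.80, 10.85 and 11.92 in controls. Of the twins, 8 of 10 in GM501 and 5 of 10 in SAGE lay below the lowest control, and the GM501 twin of pair 10 reached the top of the controls. It fell by 1.73 ± 0.47 log2 units in GM501 twins (adjusted p = 0.0249) and by 1.31 ± 0.41 in SAGE twins (adjusted p = 0.0366; 0.0699 with the random block).

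Among the carriers of neutral amino acids, Slc1a5 (ASCT2, an exchanger of glutamine, serine and alanine; chromosome 7, 16781334 to 16798274) had a lowest, median and highest signal of 7.46, 7.91 and 10.16 in GM501 twins, of 7.38, 8.50 and 9.65 in SAGE twins and of 8.32, 9.62 and 10.12 in controls. Its groups overlapped, with 7 of 10 GM501 twins and 3 of 10 SAGE twins below the lowest control. Slc1a5 fell by 1.17 ± 0.31 log2 units in GM501 twins (adjusted p = 0.0226, limma). Its difference in SAGE twins was -0.81 ± 0.29 and was not called (adjusted p = 0.0604), though it was called after centring each array on its median (-1.0, adjusted p = 0.0495), with no filter on low values (adjusted p = 0.0482) and with array weights (adjusted p = 0.048).

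Slc38a2 (SNAT2; chromosome 15, 96687392 to 96699728), a sodium-coupled carrier of small neutral amino acids, had signals of 7.14, 8.94 and 12.04 in GM501 twins, of 7.46, 10.31 and 11.92 in SAGE twins and of 9.01, 10.95 and 11.33 in controls. The twins were spread on both sides of the controls, with 5 of 10 GM501 twins and 3 of 10 SAGE twins below the lowest control and 3 and 2 twins above the highest. The difference was -1.31 ± 0.57 log2 units in GM501 twins (adjusted p = 0.102, limma; called with array weights, adjusted p = 0.00478) and -0.69 ± 0.47 in SAGE twins (adjusted p = 0.267). Slc6a9 (GLYT1; chromosome 4, 117835258 to 117869305) carries glycine, which early mouse embryos use as an osmolyte. It had signals of 6.87, 6.99 and 7.72 in GM501 twins, of 6.82, 7.05 and 7.75 in SAGE twins and of 7.14, 7.71 and 7.89 in controls. It fell by 0.45 ± 0.14 log2 units in GM501 twins (adjusted p = 0.038) and by 0.42 ± 0.14 in SAGE twins (adjusted p = 0.048). The call in SAGE twins was lost with quantile normalization (adjusted p = 0.0937), with the upper 40% of genes (0.0523), with trend and robust fitting (0.0536) and with the random block (0.0543).

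The symbol Slc6a9 stands on another, dimmer cluster, on which GM501 twins averaged 4.25, SAGE twins 4.30 and controls 4.08. On the mean of its 2 clusters the differences were -0.14 (adjusted p = 0.326) and -0.10 (adjusted p = 0.47) and neither was called. Slc6a14 (ATB0,+; chromosome X, 21714900 to 21742358), a sodium- and chloride-coupled carrier of neutral and cationic amino acids, overlapped between groups. It had signals of 9.06, 11.26 and 12.77 in GM501 twins, of 9.27, 11.68 and 12.75 in SAGE twins and of 10.6, 12.04 and 12.73 in controls. Its difference was -0.67 ± 0.44 log2 units in GM501 twins (adjusted p = 0.258, limma) and -0.36 ± 0.42 in SAGE twins (adjusted p = 0.528).

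For each of the 9 genes and in both media, the estimated fall was larger in pairs 1 to 6 than in pairs 7 to 10. In GM501 twins of pairs 1 to 6 all 9 genes were called lower than in controls, against 21.1% of all genes called lower, and in SAGE twins 8 of 9 were, against 19.9%. Slc7a5 fell by 3.89 ± 0.32 log2 units there in GM501 twins and by 3.26 ± 0.38 in SAGE twins, and Slc38a2 fell by 2.62 ± 0.34 in GM501 twins and by 0.99 ± 0.37 in SAGE twins. In pairs 7 to 10 Slc3a2 was at 11.74, 11.62, 11.71 and 12 in GM501 twins and at 11.9, 10.67, 11.44 and 11.95 in SAGE twins, against 11.98 to 12.64 in controls. Of the 9 genes there, Slc3a2 alone was called, in GM501 twins (-0.56 ± 0.12, adjusted p = 0.0308), against 0.575% of all genes called lower, while none was called in SAGE twins, against 0.531%. Slc3a2 in SAGE twins of these pairs differed by -0.83 ± 0.20 (adjusted p = 0.0575).

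Slc7a8 was at 11.92, 9.88, 7.85 and 10.71 in the GM501 twins of pairs 7 to 10, against 11.01 to 13.77 in controls, with 3 of these twins below every control and a difference of -2.29 ± 0.64 (adjusted p = 0.0978). In SAGE twins of those pairs, at 10.82, 10.2, 12.03 and 11.83, the difference was -1.16 ± 0.50 (adjusted p = 0.247). Slc38a2, at 11.38, 10.72, 11.57 and 12.04 in the GM501 twins of those pairs, and Slc6a14 had differences above 0 there that were not called, of 0.64 ± 0.35 (adjusted p = 0.419) and 0.37 ± 0.43 (adjusted p = 0.745). The difference between the 2 sets of pairs was not tested. The array medians, given above, were also higher in pairs 1 to 6, and their part was not tested.

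**Figure D2:**
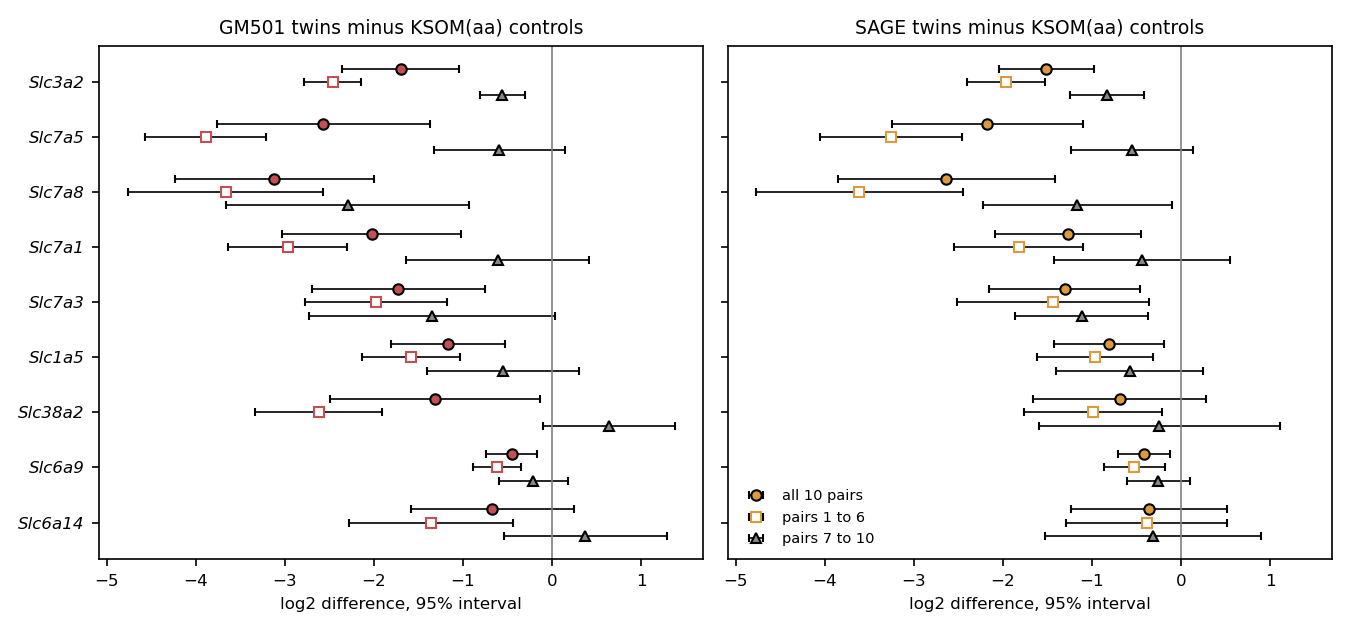
Differences in log2 signal (horizontal axis) of GM501 twins (left) and SAGE twins (right) from the KSOM(aa) controls, for 9 genes; bars are 95% confidence intervals. Circles use all 10 pairs, squares pairs 1 to 6 and triangles pairs 7 to 10; for Slc7a5 in GM501 twins these are -2.57, -3.89 and -0.59.

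Scaling changed the balance of calls over all genes but not the direction of these. With each array centred on its median, the share of calls that were higher was 16.8% in place of 49.4% in GM501 twins and 14.0% in place of 46.5% in SAGE twins; with quantile normalization the shares were 39.0% and 38.9%. Centring moved the median of all genes to -0.07 in GM501 twins and to -0.08 in SAGE twins, and the median of the 9 transporters to -1.89 and -1.46. After centring, 7 of 9 transporters were called lower in each comparison, against 9.99% of all genes in GM501 twins and 13.2% in SAGE twins.

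No transporter was called between GM501 and SAGE twins compared within pairs. None of the 18090 genes was called (0.0%), with 695 at an unadjusted p under 0.05, and none was under any alternative setting run. All 9 had negative differences, from -0.76 to -0.04 log2 units, with a median of -0.39. In pairs 7 to 10 only 4 of 9 were negative, the median was 0.02, and Slc38a2 and Slc6a14 were at 0.89 and 0.69 (adjusted p = 0.836 for each). Slc7a1 came nearest, at -0.76 ± 0.28 (95% interval -1.36 to -0.15; unadjusted p = 0.019, adjusted p = 1.0, limma), and was lower in the GM501 twin in 8 of 10 pairs. For Slc3a2 the interval ran from -0.63 to 0.25, for Slc7a5 from -1.07 to 0.28 and for Slc7a8 from -1.47 to 0.51. For Slc38a2 it ran from -1.79 to 0.54, so the precision left room for differences above 1 log2 unit in several of these genes.

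Single pairs disagreed widely. The difference of Slc7a8 ran from -4.18 in pair 9, where the GM501 twin was low, to 1.13 in pair 1. The difference of Slc38a2 ran from -3.24 in pair 4 to 3.26 in pair 8. Slc6a14 was lower in the GM501 twin in all 6 of pairs 1 to 6 and had its highest difference, 2.6, in pair 8. In pair 8 the SAGE twin had the lowest Slc38a2 and Slc6a14 signals of its group, 7.46 and 9.27, and the highest array median of its set of pairs. Among the 9 tested genes Slc6a9 had the narrowest range, from -0.68 to 0.65 log2 units.

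**Figure D3:**
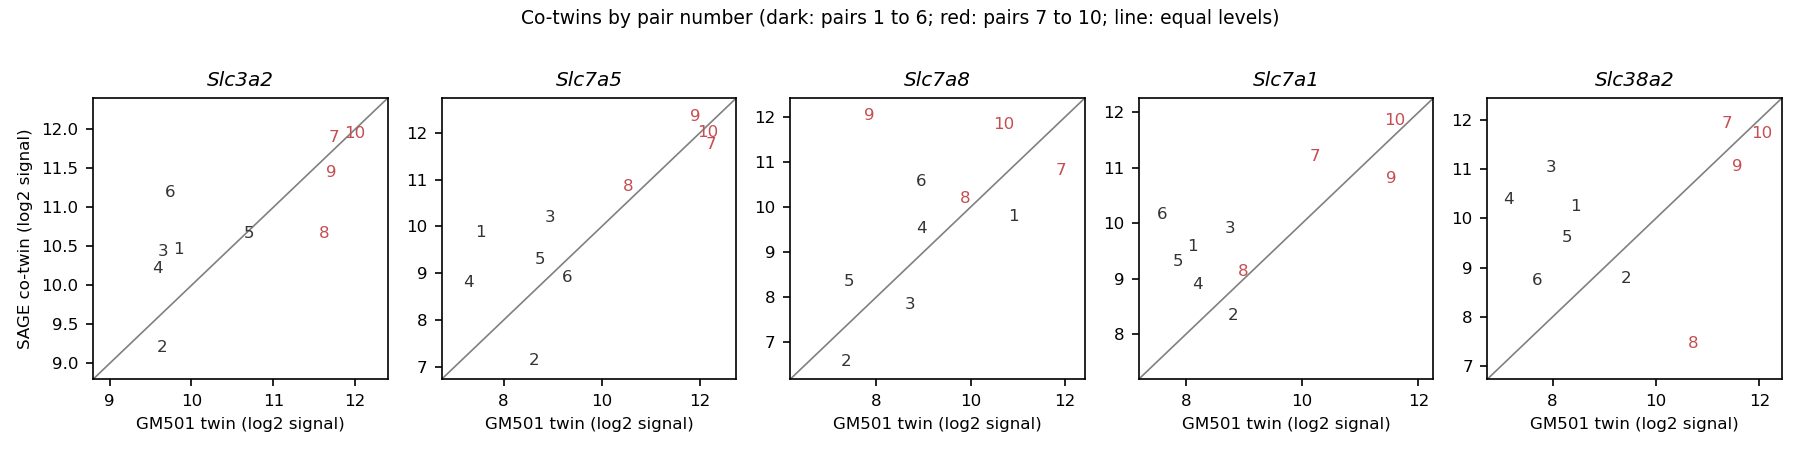
Log2 signal of 5 transporter genes in each SAGE twin (vertical axis) against its GM501 co-twin (horizontal axis), marked by pair number; the line marks equal levels. For Slc7a5, pairs 7, 9 and 10 lie together at the top near the line, with a widest difference over all pairs of -2.34 in pair 1.

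Over all pairs, some of these genes varied more between embryos of origin than between co-twins. With medium in the model, 4 of 9 transporters differed between embryos of origin (limma's F test), against 26.4% of all genes. Pairs held 90.2% of the sum of squares left after medium for Slc7a5 (adjusted p = 0.00299), 86.4% for Slc3a2 (adjusted p = 0.00967), 85.4% for Slc7a1 (adjusted p = 0.0105) and 79.7% for Slc1a5 (adjusted p = 0.036). For Slc7a8 the share was 75.5% (adjusted p = 0.0522), and the median over all genes was 71.6%. Within pairs 1 to 6 none of the 9 was called, against 0.243% of all genes, and within pairs 7 to 10 none was, against 0.0663%. In that order the shares were 46.8% and 91.3% for Slc7a5, 64.1% and 69.3% for Slc3a2, and 26.6% and 91.5% for Slc7a1. They were 70.0% and 82.5% for Slc1a5 and 83.4% and 32.3% for Slc7a8. The medians over all genes were 58.9% and 58.5%. The 91.3% for Slc7a5 depended on pair 8, as its share was 8.44% in pairs 7, 9 and 10. Each embryo belongs to 1 set of pairs, so over all pairs the shares include any difference between the sets.

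Over all 10 embryos of a group, the heavy chain and its LAT light chains varied together in some groups. Relations with 3 light chains in 3 groups make a family of 9, of which 5 had an adjusted p under 0.05 by Pearson's r (permutation test). They were Slc7a5 in each of the 3 groups, Slc7a8 in SAGE twins and Slc7a11 in SAGE twins, the last an inverse relation. The relation of Slc7a5 in GM501 twins spans the separate clusters of Slc3a2 described below, and within pairs 1 to 6 it did not pass. For each relation, 100000 permutations were drawn. How many of all genes follow Slc3a2 as closely within a group was not counted. In SAGE twins Slc7a5 followed Slc3a2 with Pearson's r = 0.848 (permutation test, adjusted p = 0.0107) and Spearman's rho = 0.794 (adjusted p = 0.021, n = 10). Slc7a8 did so with r = 0.869 (permutation test, adjusted p = 0.0107) and rho = 0.903 (adjusted p = 0.00756). These twins also differed by set of pairs, with Slc7a5 at 7.14 to 10.19 in pairs 1 to 6 and 10.86 to 12.34 in pairs 7 to 10. Their Slc3a2 averaged 10.36 and 11.49 in the same order. The part of the sets of pairs in these relations was not tested. In controls Slc7a5 gave r = 0.701 (permutation test, adjusted p = 0.0456) and rho = 0.576 (adjusted p = 0.163), and Slc7a8 gave r = 0.428 (permutation test, adjusted p = 0.282) and rho = 0.430 (adjusted p = 0.25).

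Without the 2 embryos farthest from the median of Slc3a2, r for Slc7a5 was 0.661 in SAGE twins and 0.622 in controls, and r for Slc7a8 was 0.699 in SAGE twins. By r none of these passed after adjustment (exact permutation tests, adjusted p = 0.155, 0.155 and 0.111). By rho, Slc7a8 in SAGE twins still passed (rho = 0.857, exact permutation test, adjusted p = 0.0482), while Slc7a5 did not in SAGE twins (rho = 0.643, adjusted p = 0.173) or in controls (rho = 0.405, adjusted p = 0.405). Leaving out the embryos farthest in Slc3a2 narrows its range and leaves n = 8. Both tend to lower r and raise p for any relation. The check therefore cannot show whether a relation rests on those embryos. GM501 twins fell into separate clusters of Slc3a2, 9.59 to 10.71 in pairs 1 to 6 and 11.62 to 12 in pairs 7 to 10, so no r over all of them is given. Within pairs 1 to 6 the GM501 twins gave r = 0.202 for Slc7a5 (rho = 0.371) and r = -0.339 for Slc7a8 (rho = 0.116), with exact permutation p values adjusted over 6 relations of 0.892 and 0.76. The SAGE twins of those pairs gave r = 0.672 and 0.798, with adjusted exact permutation p values of 0.444 and 0.208.

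Slc7a11, which lies near the array median, ran against Slc3a2 in SAGE twins, with r = -0.727 (permutation test, adjusted p = 0.0356) and rho = -0.806 (adjusted p = 0.021). Without the 2 embryos farthest in Slc3a2, r was -0.897 (exact permutation test, adjusted p = 0.0576) and rho was -0.881 (adjusted p = 0.0482). After centring each array on its median, r over all 10 was -0.159 (permutation test, adjusted p = 0.655). In controls r was -0.366 (permutation test, adjusted p = 0.30) and rho was 0.0.

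**Figure D4:**
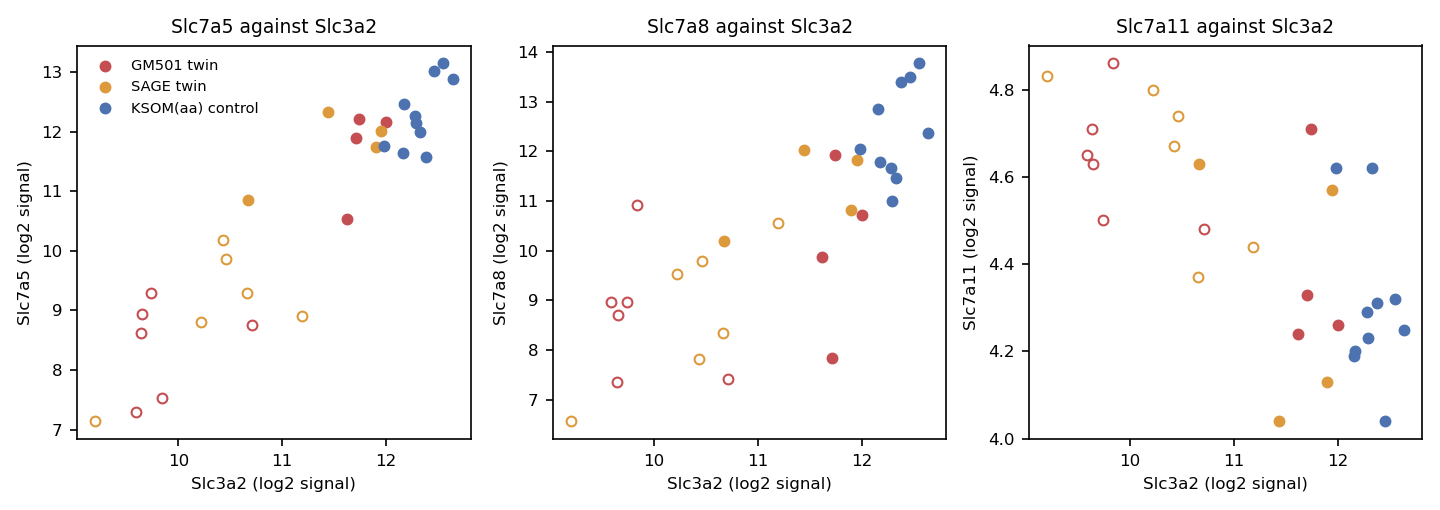
Log2 signals of 3 light chains (vertical axes) against that of the heavy chain Slc3a2 (horizontal axis) in single blastocysts. Open points are twins of pairs 1 to 6, filled points are twins of pairs 7 to 10 and controls. Slc7a5 and Slc7a8 rise with Slc3a2 over the 30 arrays, which pool groups and sets of pairs, while Slc7a11 stays between 4.04 and 4.86. Within the controls alone r is 0.701 for Slc7a5 and 0.428 for Slc7a8.

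The 5 genes with the pattern most like Slc3a2 over the 30 arrays, by Pearson's r and with no test, were Actn4 (r = 0.960), Tars (0.953), Ppp4c (0.950), Pla2g15 (0.949) and Gga2 (0.948). Actn4 encodes an actinin that crosslinks actin, Tars a threonyl-tRNA synthetase, Ppp4c a phosphatase subunit, Pla2g15 a lysosomal phospholipase and Gga2 a clathrin adaptor of the Golgi. The arrays share the group and set of pairs, and r within the 10 controls was 0.857 for Tars, 0.814 for Actn4, 0.495 for Ppp4c, 0.081 for Gga2 and 0.009 for Pla2g15. Over the 30 arrays r with Slc3a2 was 0.921 for Slc7a5, 0.866 for Slc7a1, 0.791 for Slc7a8 and 0.601 for Slc6a14. Within the 10 controls r was 0.756 for Slc6a14, 0.718 for Slc7a3, 0.701 for Slc7a5 and 0.699 for Slc6a9. It was 0.552 there for Slc7a1, 0.428 for Slc7a8, 0.370 for Slc38a2 and 0.054 for Slc1a5. Closeness to Slc3a2 in controls was thus not particular to its light chains.

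A list of 45 other amino acid transporters had 21 genes above the required level. In GM501 twins 6 of the 21 were called lower, against 6.97% of all genes, and 1 higher, with a median of -0.18 log2 units. In SAGE twins 6 were called lower, against 8.63%, and 1, Slc7a10, higher (0.22, adjusted p = 0.0481; named after its value was seen), with a median of -0.27. The median of all genes was 0.11 in each. In pairs 1 to 6, 10 were called lower and 3 higher in GM501 twins, against 21.1% of all genes called lower, and 10 lower and 5 higher in SAGE twins, against 19.9%. Of all 18090 genes, 6926 in GM501 twins and 7045 in SAGE twins were called higher in those pairs. Over all pairs, 1232 and 1356 were. Slc38a4 (a system A carrier) fell by 1.57 ± 0.24 in GM501 twins (adjusted p = 0.00135, limma) and by 1.57 ± 0.29 in SAGE twins (adjusted p = 0.00678). Slc7a6, another light chain of Slc3a2, which exchanges cationic for neutral amino acids, fell by 1.51 ± 0.28 in GM501 twins (adjusted p = 0.00467) and by 1.32 ± 0.26 in SAGE twins (adjusted p = 0.00782). Slc38a7, a glutamine carrier, fell by 1.13 ± 0.32 in GM501 twins (adjusted p = 0.03) and by 1.34 ± 0.28 in SAGE twins (adjusted p = 0.00946).

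Slc1a4, an exchanger of serine and alanine, fell by 1.14 ± 0.36 in GM501 twins (adjusted p = 0.0439) and by 1.23 ± 0.37 in SAGE twins (adjusted p = 0.0322). Slc1a3, a glutamate carrier, was the list's called rise in GM501 twins, by 0.58 ± 0.17 log2 units (adjusted p = 0.032), and was higher than the controls' median in 9 of 10 of them, against 0.30 ± 0.17 in SAGE twins (adjusted p = 0.192). After centring the arrays no gene of the list was called higher in either comparison, and 7 in GM501 twins and 6 in SAGE twins were called lower. In pairs 7 to 10, Slc1a3 in GM501 twins was the only call of the list (0.90 ± 0.17, adjusted p = 0.018).

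**Figure D5:**
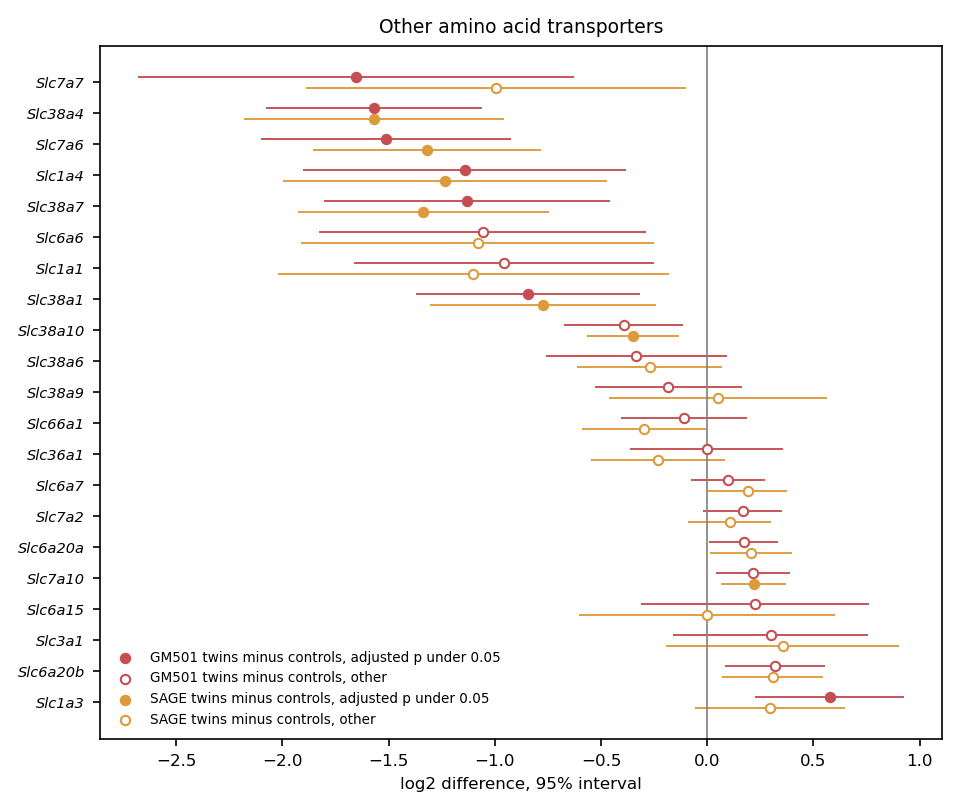
Differences in log2 signal (horizontal axis) of GM501 and SAGE twins from the KSOM(aa) controls for 21 other amino acid transporters; bars are 95% confidence intervals and filled points are called. Filled points lie mostly left of 0, with Slc38a4 at -1.57 in both.

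Of 41 genes of amino acid sensing and of the response to amino acid shortage, 39 were tested. In GM501 twins 7 of the 39 were called lower, against 6.97% of all genes, and in SAGE twins 6 were, against 8.63%. The list medians were -0.19 and -0.17 log2 units. The call of a higher level in GM501 twins was Lamtor5, a Ragulator subunit named after its value was seen (0.77, adjusted p = 0.044), and after centring the arrays no gene of the list was called higher in either comparison. In pairs 1 to 6, 20 of the 39 were called lower and 3 higher in GM501 twins, against 21.1% of all genes called lower, and 14 lower and 6 higher in SAGE twins, against 19.9%. Of all 18090 genes, 6926 and 7045 were called higher in those pairs. In pairs 7 to 10 none of the 39 was called lower in either medium, against 0.575% and 0.531% of all genes. The call there was Chac1, a glutathione-degrading enzyme and known Atf4 target, named after its value was seen, which was higher in GM501 twins (1.19 ± 0.28, adjusted p = 0.0495), against -0.35 ± 0.39 in SAGE twins (adjusted p = 0.711). Sesn2 and Castor1, sensors of leucine and arginine upstream of mTORC1, fell by 1.52 ± 0.37 (adjusted p = 0.0163) and 1.13 ± 0.21 (adjusted p = 0.00472) in GM501 twins, and by 1.44 ± 0.32 (adjusted p = 0.0113) and 1.48 ± 0.34 (adjusted p = 0.0124) in SAGE twins. Tsc2, an inhibitor of mTORC1, fell by 1.04 ± 0.20 in GM501 twins (adjusted p = 0.00472) and by 0.83 ± 0.24 in SAGE twins (adjusted p = 0.0309). The kinase Mtor fell by 0.86 ± 0.27 in GM501 twins (adjusted p = 0.0399) and by 0.92 ± 0.24 in SAGE twins (adjusted p = 0.0213).

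Ddit3, a stress gene that Atf4 is known to induce, fell by 1.44 ± 0.32 in GM501 twins (adjusted p = 0.0119), and its difference in SAGE twins was -0.96 ± 0.45 (adjusted p = 0.12). In pairs 7 to 10 it was at -1.61 ± 0.38 (adjusted p = 0.0561) and -1.57 ± 0.52 (adjusted p = 0.143). Trib3, another gene that Atf4 is known to induce, fell by 0.80 ± 0.25 in GM501 twins (adjusted p = 0.0379) and by 0.92 ± 0.23 in SAGE twins (adjusted p = 0.0176). In pairs 7 to 10 Trib3 was at -0.12 ± 0.27 (adjusted p = 0.887) and -0.51 ± 0.32 (adjusted p = 0.462). Atf4 itself was not called, with -0.56 ± 0.23 in GM501 twins (adjusted p = 0.0942) and -0.51 ± 0.21 in SAGE twins (adjusted p = 0.0805), and in pairs 7 to 10 it was at 0.18 ± 0.19 and -0.07 ± 0.17. Between the media no gene of either list was called.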

How the data were processed

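RNA of 30 single blastocysts was measured on Affymetrix arrays, 10 per group. The authors deposited log2 signals of 65956 transcript clusters, made with Affymetrix Expression Console and RMA on mm10, per the submitters' processing notes; versions are not given in the sources used here. Background subtraction, normalization and probe summary are part of RMA, so signals compare only within a cluster, and no label states the base of the logarithm, which was taken from RMA's own scale and the range of values, 2.2 to 19.3. Precision is limited by how many arrays there are.

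Of the clusters, 32750 had a listed gene; 30604 carried 1 symbol, 827 of which were renamed by gene ID on GRCm38.p6, and 2146 carried several and were not used. Taking the brightest cluster of each left 30142 genes, of which the upper 60% by mean, 18090 genes with means of at least 4.8, were tested two-sided by lmFit and eBayes of limma 3.58.1, run in R 4.3.3. The media were compared with the pair as a block; twins of a medium were set against the controls using those 20 arrays; an F test in limma asked whether embryos of origin differed. The pair number marks a shared embryo, per the labels, and in the values r between partners ran from 0.163 to 0.696 across genes centred within medium, and 7 of 10 GM501 twins matched their own partner best. Correlations used 100000 permutations.

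Members, lists, sets of pairs and settings were chosen with earlier results of these data known. All 10 members were named, then up to 4 called genes of each other list with the smallest p per comparison with controls, Atf4, and the 5 protein-coding genes most like Slc3a2. Alternatives were median centring, quantile normalization, other filters on low values, trend and robust fitting, array weights, the mean of all clusters, no block, a random block over the 3 groups (correlation 0.376) and subsets of pairs; pairs 7, 9 and 10 alone were added after seeing the data. Scripts were tested on simulated data. Protein sequences were not used here.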

Additional observations from a re-analysis of the deposited data

Results flagged for a closer look

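Chance flags about 1 in 20 groups by the test used, and 30 groups of 10 (10 genes in 3 groups) were examined; 2 had a value set apart. Slc7a3 in the SAGE twin of pair 2 was at 6.53, with the next value at 9.04 and the highest at 11, a gap of 0.561 of the range. Slc38a2 in KSOM(aa) control 1 was at 9.01, with the next at 10.61 and the highest at 11.33, a gap of 0.690 of the range. No cause of either was tested.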

How the results depend on the processing

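Over 423 alternative values, 342 kept their direction and side of the threshold, 45 lost a call, 16 gained one and 20 turned direction; the cause was not tested. Without the pair as a block, GM501 against SAGE again had 0 calls among members and genes (225 genes at an unadjusted p under 0.05). Members called lower in GM501 twins, 7, became 1 in pairs 7 to 10 and 0 in pairs 7, 9 and 10; in SAGE twins, 6 became 0 in either of these subsets and 3 with the random block. Genes called in GM501 twins, 2493, became 5757 with no filter, 7911 with array weights, 10742 in pairs 1 to 6, 239 in pairs 7 to 10, 75 in pairs 7, 9 and 10, and 4524 without pair 8. In SAGE twins, 2918 became 7911, 8876, 10642, 147 and 124 in the same order up to pairs 7, 9 and 10. For the embryo of origin, 4 members called became 7 with array weights and 0 in pairs 1 to 6, 7 to 10 and 7, 9 and 10, and 4779 genes became 44, 12 and 10. Of the 9 chain relations, 5 passed by Pearson's r, among them Slc7a5 across the separate clusters of GM501 twins. By r 0 passed without the 2 farthest arrays, and 0 of 6 in pairs 1 to 6. By Spearman's rho, Slc7a8 (0.857) and Slc7a11 (-0.881) in SAGE twins still passed without those arrays (exact permutation tests, adjusted p = 0.0482 for each).

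Between media, values turned in pairs 7 to 10 to 0.28 for Slc3a2, 0.89 for Slc38a2, 0.0475 for Slc6a9, 0.02 for Slc1a5 and 0.69 for Slc6a14. In pairs 7, 9 and 10 they turned to 0.0533 for Slc3a2, 0.06 for Slc7a5, 0.51 for Slc7a3, 0.10 for Slc38a2, 0.22 for Slc6a9 and 0.05 for Slc6a14; Slc6a9 was 0.0311 with array weights and 0.0144 without pair 8. Against controls, GM501 twins turned to 0.64 for Slc38a2 and 0.37 for Slc6a14 in pairs 7 to 10, and to 0.88 and 0.47 in pairs 7, 9 and 10. SAGE twins turned in pairs 7, 9 and 10 to 0.10 for Slc7a1, 0.78 for Slc38a2 and 0.42 for Slc6a14. No adjusted p of these was under 0.05. A signal near the array median, as for Slc7a11, carries little information on change.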
